A study of Homo sapiens with 6 samples.

Results

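The constitutive proteasome subunits are the genes named PSMA, PSMB, PSMC or PSMD with a number, without the inducible PSMB8, PSMB9 and PSMB10. Within the group, genes were taken by symbol; the group itself was picked with earlier results of these data known. The rule found 36 gene symbols with 38 Ensembl gene IDs among the 63677 gene IDs of the series, since PSMA1 and PSMA2 each have a second ID. Of these, 35 gene IDs of 34 symbols had a mean of at least 1 TPM, a share of the library corrected for transcript length, and were tested together with all 22651 gene IDs above that level. The series measured total RNA of KMS27, an established human myeloma line, by RNA-seq in 3 libraries of wild type cells and 3 of cells labelled HA-TAZ. TAZ, the product of WWTR1, is a transcriptional coactivator of the Hippo pathway, here overexpressed with an HA tag, and the question was which transcripts change with it. The vector, its promoter and whether the HA-TAZ cells were a pool or a single clone are not given in the sources used here, and neither are separate cultures, so the p-values measure only the spread between these libraries. Wild type samples also have HA in their titles, so whether those cells held a construct is unclear. The control columns are named scr with a number, which no label explains, and by elimination they stand for the wild type samples; they are called control a, b and c.

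The proteasome degrades proteins marked with ubiquitin. Its core particle is a barrel of stacked rings: the outer alpha rings form the gate, and the inner beta rings carry the proteolytic sites. A regulatory particle caps the barrel, with a base of ATPases that unfold the substrate and a lid that removes its ubiquitin. Plasma cells and myeloma cells make large amounts of secretory protein and are sensitive to proteasome inhibitors such as bortezomib, which binds PSMB5. In mammalian cells the subunit genes are activated together by NFE2L1 through antioxidant response elements in their promoters when proteasome activity falls.

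WWTR1 was at 293, 306 and 293 TPM in HA-TAZ 1, 2 and 3 and at 2.69, 2.22 and 1.69 TPM in control a, b and c, so the libraries matched their assigned groups. The 8 plasma cell markers summed to 550 to 599 TPM in HA-TAZ and 653 to 743 TPM in control libraries, and to 618 to 648 and 614 to 639 in scaled TPM, which overlapped. Among them SLAMF7 was called higher (log2 fold change 0.95, limma adjusted p = 0.0128) and CD38 lower (-0.61, limma adjusted p = 0.0226) in scaled TPM. With TPM as deposited SLAMF7 was called higher (0.70, limma adjusted p = 0.0311) and CD38 lower (-0.88, 0.02). TNFRSF17 (-0.35, limma adjusted p = 0.0311), XBP1 (-0.24, 0.0489) and MZB1 (-0.38, 0.0362) were then called lower too, where 13.5% of all genes were. The 4 B cell markers summed to under 1 TPM in every library, and the 4 T cell, 4 myeloid and 4 stromal and epithelial markers to between 1.32 and 6.37 TPM. MS4A1 was listed at 0 in control c, LYZ in control a, and CD3D in control a and every HA-TAZ library. The part of these markers in the results was not tested. Protein-coding genes took 43.6%, 47.4% and 42.2% of TPM in HA-TAZ 1, 2 and 3 and 54.5%, 49.7% and 46.9% in control a, b and c. TPM is a share of a library, so each library was rescaled by a median-of-ratios factor over 21512 genes. The factors were 0.866, 0.967 and 0.890 in HA-TAZ 1, 2 and 3 and 1.21, 1.09 and 1.06 in control a, b and c. The factors themselves separate the groups, and whether this step follows RNA content per cell was not tested.

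The antioxidant response element is shown first because it is the element through which NFE2L1 is known to act on subunit genes. Promoters from 250 bases before to 50 after the start were taken from RefSeq (GRCh38.p14), which matched 31 of the 36 symbols with 37 promoters. The core of the element, TGACNNNGC on either strand, was in 9 of the 37 promoters (24.3%) and in 13.3% of 35116 promoters of the same length. Its first bases can overlap the AP-1 element TGANTCA. The matches upstream of the start follow 5′ to 3′ along the gene's strand, with the element in capitals; in PSMC5 and at the first PSMD9 site it lies on the opposite strand, so the capitals show its reverse complement.
PSMA4 (chr15:78540652-78540676, plus strand): gggcacgaTGACTCTGCaccgcctc
PSMB3 (chr17:38752629-38752653, plus strand): ctccgtttTGACTTTGCaaccaaac
PSMC5 (chr17:63827656-63827680, plus strand): ccggatctGCTGTGTCAgcgccgcc
PSMD3 (chr17:39980762-39980786, plus strand): ccctttgtTGACTCGGCcatcggcc
PSMD5 (chr9:120843040-120843064, minus strand): gctacagtTGACACGGCcctaacgg
PSMD9 (chr12:121888633-121888657, plus strand): ctactcctGCCGGGTCAccacaggc
PSMD9 (chr12:121888680-121888704, plus strand): gcttccggTGACCCAGCtccgccct
PSMD12 (chr17:67366726-67366750, minus strand): acaaaaccTGACGCTGCaggctgga

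The element began 37 bases upstream of the start in PSMD3 (position -37), at position -57 in PSMC5, -104 in PSMB3, -126 in PSMA4, -134 in PSMD5 and -165 in PSMD12. In PSMD9 it began at -149 and at -102. PSMC4 and PSMD1 held it only after the start. CCAAT, the element bound by NF-Y, was in 17 of the 37 promoters (45.9%) and in 34.6% of all. The palindromic site of nuclear respiratory factor NRF1 was in 2 overlapping promoters of PSMA4 (5.41%) and in 1.24% of all. A match is a sequence description and not a bound site.

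In scaled TPM, 13 of the 35 gene IDs were called higher and 0 lower in the limma test over all genes (Benjamini-Hochberg adjusted p under 0.05), where 4.67% of all genes and 7.5% of protein-coding genes were called higher, and 2.63% and 2.18% lower. With TPM as deposited, where 1.15% of all genes were called higher and 13.5% lower, 0 members were called higher and 1 lower, PSMD5. The 13 were PSMA1 and PSMA5 of the alpha ring, PSMB2 to PSMB7 of the beta ring, PSMC1, PSMC4 and PSMC5 of the base, and PSMD3 and PSMD14 of the lid. The differences were small, with a median log2 fold change over the 35 of 0.30 (quartiles 0.19 and 0.35, range -0.12 to 0.53). The median over all tested genes was -0.03, and over protein-coding genes 0.06. In 30 of the 35 every HA-TAZ library was above every control library in scaled TPM, as in 20.2% of all genes and 31.4% of protein-coding genes. In 0 members the order was the opposite, as in 18.3% of all genes and 14% of protein-coding genes. In RNA of a whole culture, fewer cells with the RNA and less RNA per cell cannot be told apart.

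The scaling set the sign for a large part of the members. Their place above the typical gene could hardly change with it, since a factor shifts all genes of a library by nearly the same amount. As a share of the library, all 38 gene IDs together took 0.309%, 0.327% and 0.298% of TPM in HA-TAZ 1, 2 and 3 and 0.323%, 0.310% and 0.303% in control a, b and c. These shares overlapped. The rescaled sums were 3565, 3382 and 3352 in HA-TAZ 1, 2 and 3 and 2673, 2842 and 2868 in control a, b and c, with no overlap. With TPM as deposited the median log2 fold change of the members was 0.01 and that of all genes -0.27. In these values 5 members were higher without overlap (4.41% of all genes) and 2 were lower (43.6% of all genes). These 5 were PSMA7, PSMB3, PSMB6, PSMC3 and PSMD3, and the 2 were PSMD1 and PSMD5. With a factor over protein-coding genes, 10 members were called higher and 0 lower, where 2.91% and 3.79% of all genes were, and the median was 0.22. The members' median was above that of all genes by 0.29 with TPM as deposited and by 0.31 with that factor, against 0.32 in the main scaling. It was above that of protein-coding genes by less, 0.22, 0.23 and 0.24 in the same order. The likeness of these gaps between the scalings follows from the method and is no added support. Over protein-coding genes the log2 fold change tended to be larger at higher levels (Spearman rho 0.21 with log2 mean TPM). The members had a median level of 81.5 TPM, against 13.5 TPM for protein-coding genes, and the part of level in their place was not tested.

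**Figure D1:**
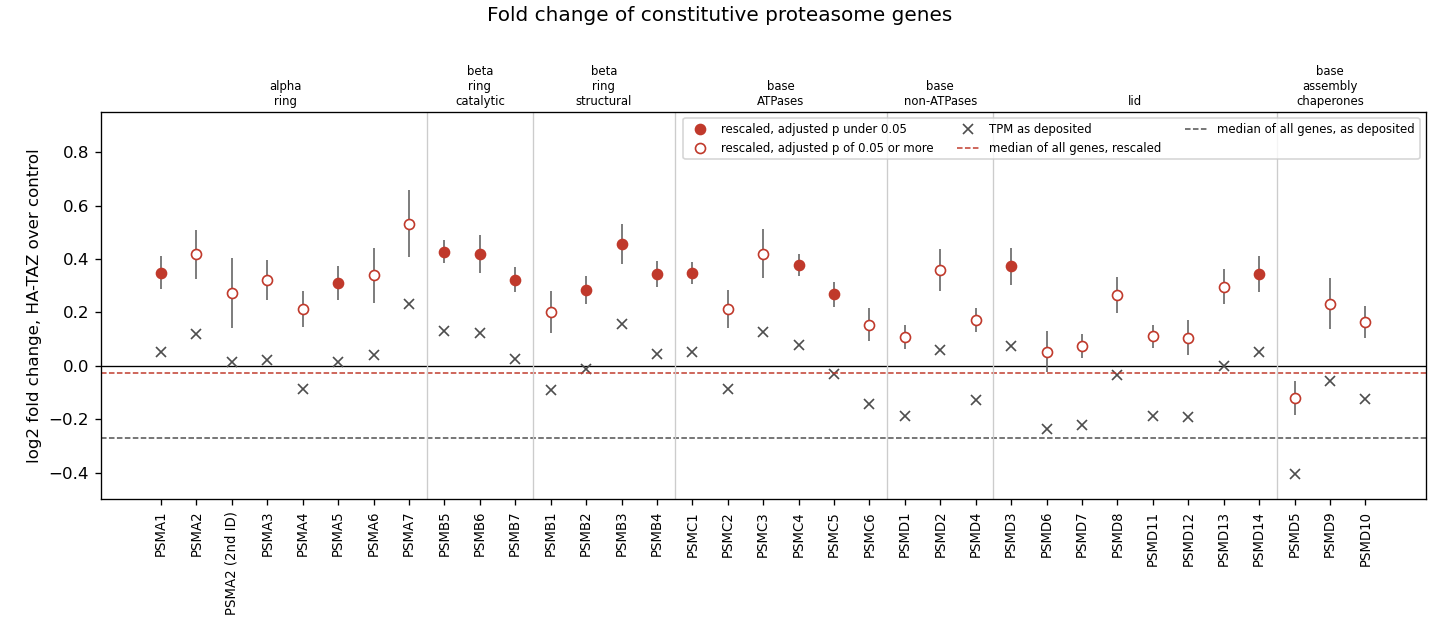
Log2 fold change of each tested gene ID, HA-TAZ over control, by role, with the standard error of limma as bars; filled circles passed the adjusted threshold after rescaling, open circles did not, crosses are TPM as deposited. After rescaling all but PSMD5 lie above 0, while with TPM as deposited they scatter around 0, above the dashed median of all genes at -0.27 except for PSMD5.

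After rescaling the catalytic subunits were all called higher, and in TPM as deposited none was. PSMB5, the chymotrypsin-like subunit, had 70.8, 68.6 and 72.5 scaled TPM in HA-TAZ 1, 2 and 3 and 51.0, 52.3 and 53.5 in control a, b and c. Every HA-TAZ library lay above every control. The means were 70.6 ± 1.95 and 52.3 ± 1.28 (SD, n = 3 each), which gave a log2 fold change of 0.43 ± 0.04 (SE; adjusted p = 0.0112 in limma), the lowest adjusted p among the members. In deposited TPM PSMB5 was at 61.3, 66.3 and 64.5 in HA-TAZ 1, 2 and 3 and at 61.6, 57.0 and 56.6 in control a, b and c, so that HA-TAZ 1 lay just under control a. PSMB6, the caspase-like subunit, had 65.6, 60.6 and 63.7 scaled TPM against 43.1, 50.8 and 47.5, in the same order of libraries. Its log2 fold change was 0.42 (SE 0.07, limma adjusted p = 0.0345), and its groups did not overlap in deposited TPM either. PSMB7, the trypsin-like subunit, had 109, 101 and 102 scaled TPM against 81.3, 83.2 and 84.3. Its log2 fold change was 0.32 (SE 0.05, limma adjusted p = 0.0257), and 0.02 with TPM as deposited.

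Of the 4 structural beta subunits, which complete the inner rings without a proteolytic site, 3 were called higher. PSMB4 had the highest level of all members in both groups, 274, 259 and 252 scaled TPM in HA-TAZ 1, 2 and 3 and 202, 207 and 209 in control a, b and c (log2 fold change 0.34, SE 0.05, limma adjusted p = 0.0226). PSMB3 was next in level, with 230, 217 and 216 against 147, 162 and 176, and its log2 fold change of 0.46 was the largest of the called members (SE 0.07, limma adjusted p = 0.0322). The groups of both genes did not overlap, and those of PSMB3 did not overlap in deposited TPM. PSMB2 had 81.3, 80.9 and 76.0 against 66.4, 67.1 and 61.6 scaled TPM (log2 fold change 0.28, SE 0.05, limma adjusted p = 0.0397), and -0.01 with TPM as deposited. PSMB1 did not pass (log2 fold change 0.20, limma adjusted p = 0.15).

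In the alpha ring, whose subunits gate the barrel and dock the regulatory particle, 2 of 8 tested gene IDs were called and all 8 were positive, with a median of 0.33. PSMA1 had 176, 172 and 160 scaled TPM in HA-TAZ 1, 2 and 3 and 124, 135 and 139 in control a, b and c (log2 fold change 0.35, SE 0.06, limma adjusted p = 0.0367). PSMA5 had 52.4, 46.8 and 47.5 against 38.0, 38.2 and 41.4 (0.31, SE 0.06, limma adjusted p = 0.0468). Both groups were apart in these genes after rescaling and overlapped in deposited TPM, where the log2 fold changes were 0.05 and 0.02. PSMA7 had the largest difference of all members, 168, 162 and 169 against 93.6, 125 and 129 scaled TPM, but control a lay well under the other controls. Its log2 fold change of 0.53 had a standard error of 0.13 and did not pass (limma adjusted p = 0.0589), while without control a it was 0.38 and passed (limma adjusted p = 0.0324). PSMA2 followed with a log2 fold change of 0.42 (limma adjusted p = 0.0531), PSMA6 with 0.34 (0.0938), PSMA3 with 0.32 (0.0572) and PSMA4 with 0.21 (0.104), each without overlap of the groups. The second gene ID of PSMA2, at 6.61 ± 0.672 scaled TPM in HA-TAZ and 5.33 ± 0.948 in controls (SD, n = 3 each), overlapped.

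**Figure D2:**
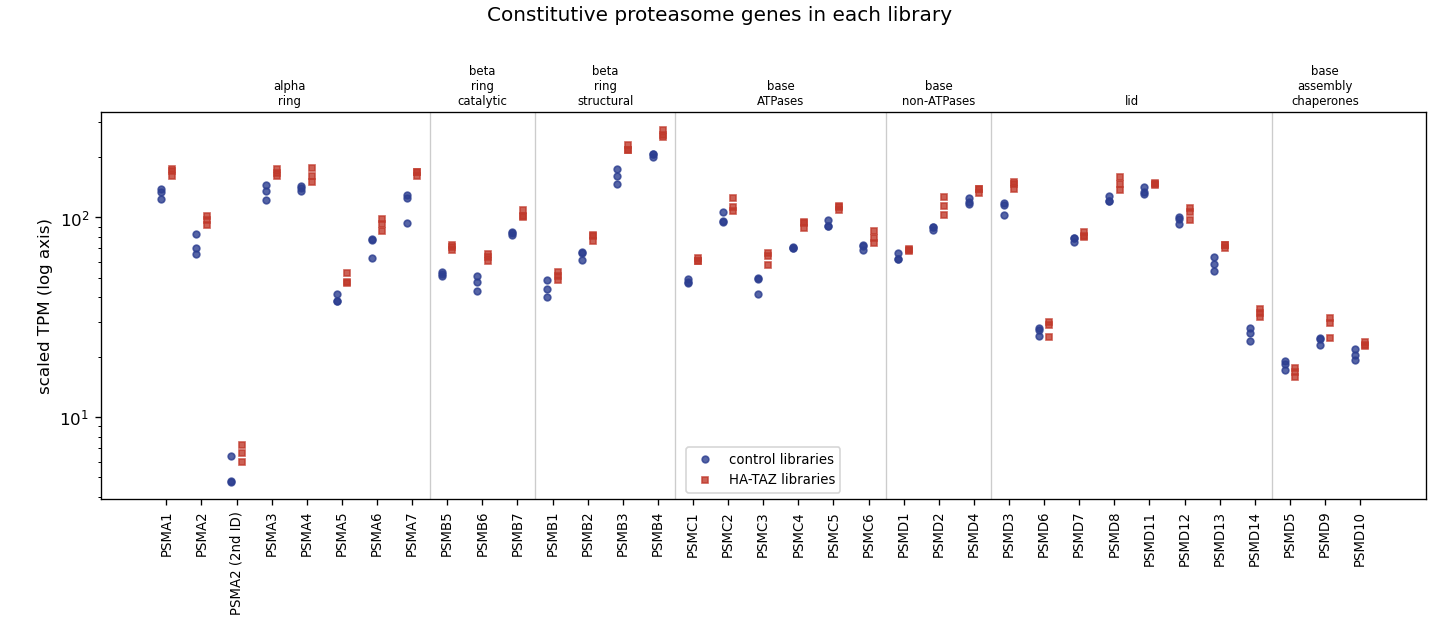
Scaled TPM on a log axis of each tested gene ID in the 3 control (circles) and 3 HA-TAZ (squares) libraries, by role. PSMB4 and PSMB3 stand highest; in 30 of the 35 gene IDs all squares lie above all circles after rescaling, as for PSMB5 at 68.6 to 72.5 against 51.0 to 53.5, whereas 5 do so in TPM as deposited.

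In the base, the 6 ATPases form the ring that pulls substrates into the core, and 3 of them were called higher. PSMC1 had 62.5, 60.8 and 60.7 scaled TPM in HA-TAZ 1, 2 and 3 and 47.0, 49.2 and 47.8 in control a, b and c (log2 fold change 0.35, SE 0.04, limma adjusted p = 0.0144). PSMC4 had 93.6, 89.0 and 94.4 against 70.7, 70.3 and 71.5 (0.38, SE 0.04, limma adjusted p = 0.0128). In both genes the gap between the groups was several times their SDs, which were 1.02 and 1.14 for PSMC1 and 2.93 and 0.594 for PSMC4. PSMC5 had 112, 114 and 109 against 90.8, 96.8 and 90.8 scaled TPM (0.27, SE 0.05, limma adjusted p = 0.0344), and -0.03 with TPM as deposited. PSMC3 was at 62.9 ± 4.44 and 46.8 ± 4.75 scaled TPM (SD, n = 3 each; log2 fold change 0.42, limma adjusted p = 0.0523), while PSMC2 had a log2 fold change of 0.21 (0.118) and PSMC6 of 0.15 (0.16). None of the 3 remaining base subunits passed. PSMD2, a scaffold that binds ubiquitin-like domains, was at 114 ± 11.7 and 88.6 ± 1.66 (SD, n = 3 each; log2 fold change 0.36, limma adjusted p = 0.052). PSMD4, an intrinsic ubiquitin receptor, had a log2 fold change of 0.17 (limma adjusted p = 0.0712) and PSMD1, the other scaffold, of 0.11 (0.174). PSMD1 was lower without overlap in deposited TPM, with a log2 fold change of -0.19 (limma adjusted p = 0.0989).

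In the lid, 2 of 8 genes were called higher and the median log2 fold change was 0.19, against -0.11 with TPM as deposited. PSMD14, the deubiquitinase that removes the ubiquitin chain, had 35.0, 33.4 and 31.8 scaled TPM in HA-TAZ 1, 2 and 3 and 24.2, 27.8 and 26.3 in control a, b and c (log2 fold change 0.34, SE 0.07, limma adjusted p = 0.0442). PSMD3, a scaffold subunit, had 150, 139 and 148 against 102, 116 and 119 (0.37, SE 0.07, limma adjusted p = 0.0394). PSMD3 was also apart in deposited TPM, and PSMD14 was not. PSMD13 (log2 fold change 0.30, limma adjusted p = 0.0509) and PSMD8 (0.26, 0.0678) followed without overlap. PSMD11, at 147 ± 1.42 and 136 ± 5.37 scaled TPM (SD, n = 3 each; log2 fold change 0.11, limma adjusted p = 0.151), PSMD12 (0.11, 0.329) and PSMD7 (0.08, 0.304) were closer to the median of protein-coding genes. PSMD6 had 30.0, 28.9 and 25.3 against 27.3, 28.0 and 25.6, and the groups overlapped (log2 fold change 0.05, limma adjusted p = 0.676). Antisense genes are named after PSMD6 and PSMD5, and use of the strand in quantification is not given in the sources used here, so both values are uncertain.

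The members named PSMD that help to assemble the base and leave the finished particle held the lowest value. PSMD5 had 17.6, 16.8 and 15.9 scaled TPM in HA-TAZ 1, 2 and 3 and 17.2, 18.5 and 19.1 in control a, b and c. It was the only tested member with a negative log2 fold change, -0.12 with a standard error of 0.06, and its groups overlapped (limma adjusted p = 0.263). In deposited TPM it had 15.2, 16.2 and 14.1 against 20.8, 20.2 and 20.2, with no overlap, and was called lower (log2 fold change -0.41, limma adjusted p = 0.0337). PSMD9 (log2 fold change 0.23, limma adjusted p = 0.16) overlapped, and PSMD10 (0.16, 0.131) did not. The 9 members with the antioxidant response element core, before or after the start, had log2 fold changes from -0.12 (PSMD5) to 0.46 (PSMB3). Whether the element goes with the change was not tested.

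The balance between the parts of the particle does not depend on the scaling, since both parts come from the same library. The summed TPM of the 8 lid genes over that of the core particle was 0.427, 0.437 and 0.433 in HA-TAZ 1, 2 and 3 and 0.499, 0.483 and 0.46 in control a, b and c. The lid was thus lower against the core in every HA-TAZ library. The ratio of base to core was 0.471, 0.474 and 0.490 against 0.539, 0.510 and 0.489, and the groups overlapped by HA-TAZ 3 and control c. The core alone summed to 1593, 1679 and 1519 TPM in HA-TAZ 1, 2 and 3 and to 1550, 1519 and 1520 TPM in control a, b and c. The sums also hold transcripts that keep an intron, whose share differs between genes and, as given below, between the groups. Its part in these ratios was not tested, nor how often sums of other genes separate in this way. These ratios were chosen with the gene values known and are a description.

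The order of the levels within the particle was much the same in both groups. In control libraries PSMB4 was at 230 ± 12.2 TPM and PSMB3 at 180 ± 5.10 TPM (SD, n = 3 each), and each stood apart from the next gene. PSMA4, PSMD11, PSMA3 and PSMA1 followed at 156 to 148 TPM and overlapped in turn with each other. Lowest, beside the second gene ID of PSMA2, were PSMD9, PSMD10 and PSMD5 at 27.0 ± 0.739, 23.0 ± 1.14 and 20.4 ± 0.374 TPM (SD, n = 3 each), the assembly chaperones, each apart from the next. The catalytic PSMB7, PSMB5 and PSMB6 held ranks 15, 24 and 26 of the 35 gene IDs at 92.7 ± 4.91, 58.4 ± 2.79 and 52.6 ± 2.62 TPM (SD, n = 3 each). In HA-TAZ libraries they held ranks 15, 23 and 25. The gene IDs under the filter had almost no RNA. PSMA8, a testis form of an alpha subunit, had 0.0798, 0.114 and 0.118 TPM in HA-TAZ 1, 2 and 3 and 0.209, 0.0374 and 0.0699 TPM in control a, b and c. PSMB11, the thymus form of the chymotrypsin-like subunit, had 0.0174, 0 and 0.0192 against 0, 0.0163 and 0 TPM. The second gene ID of PSMA1 had 0.550, 0.702 and 0.580 against 0.415, 0.672 and 0.863 TPM. The groups of all 3 overlapped.

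The inducible subunits replace the catalytic ones in the immunoproteasome, which interferon induces. PSMB8 and PSMB9 lie in the HLA region and had 8 gene IDs each, with reads split over haplotype copies, so their values are uncertain. Summed over its gene IDs, PSMB8 stood to PSMB5 as 0.354, 0.293 and 0.340 in HA-TAZ 1, 2 and 3 and as 0.212, 0.262 and 0.255 in control a, b and c. All HA-TAZ ratios exceeded all control ratios (two-sided exact permutation test, p = 0.1, or 0.15 adjusted over the 3 ratios), and no lower p is possible with 3 against 3 libraries. PSMB9 stood to PSMB6 as 0.610, 0.633 and 0.572 against 0.547, 0.468 and 0.511, also without overlap (exact permutation p = 0.1, adjusted 0.15). PSMB10 stood to PSMB7 as 0.309, 0.283 and 0.305 against 0.267, 0.290 and 0.323, with overlap (exact permutation p = 0.8). With the highest gene ID alone the first ratio was 0.0851 ± 0.0187 and 0.0404 ± 0.0157 and the second 0.119 ± 0.00561 and 0.103 ± 0.00945 (SD, n = 3 each). Of 14 tested gene IDs of the inducible subunits, 13 had a positive log2 fold change in scaled TPM. The exception, a copy of PSMB8, had 7.86, 0.771 and 0.619 TPM in control a, b and c. In HA-TAZ 1, 2 and 3 it had 0.944, 0.871 and 0.852 TPM, so the ratio of a single copy is uncertain.

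**Figure D3:**
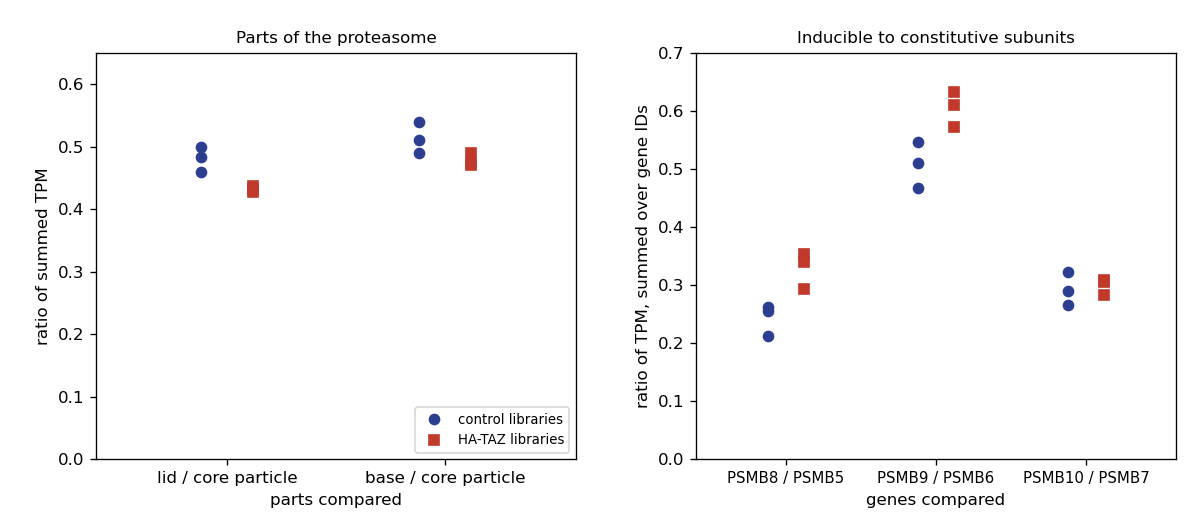
Ratios within each library that do not depend on the scaling: lid and base over core particle (left) and inducible over constitutive catalytic subunits, summed over gene IDs (right); circles are control and squares HA-TAZ libraries. Lid over core is lower in each HA-TAZ library (0.427 to 0.437 against 0.46 to 0.499), PSMB8 over PSMB5 and PSMB9 over PSMB6 are higher, and the other pairs overlap.

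The partners of the proteasome were read from lists chosen for their function. Of 5 genes for alternative caps and their inhibitor, 3 were called higher and the median log2 fold change was 0.35. PSME2, which with PSME1 forms the interferon-inducible cap, had the largest difference, 103, 98.4 and 102 scaled TPM in HA-TAZ 1, 2 and 3 and 56.3, 62.5 and 63.3 in control a, b and c (0.73, SE 0.06, limma adjusted p = 0.00638). It was called higher in deposited TPM too (0.43, limma adjusted p = 0.0216). PSME1 (0.35, limma adjusted p = 0.0122) and PSME3, the nuclear cap (0.37, 0.0114), were called after rescaling only. PSMF1, an inhibitor of the core, overlapped (0.13, 0.354). Of the 5 core assembly chaperones, POMP, which completes the core particle, was called (0.40, limma adjusted p = 0.042), and the median was 0.28. Of 7 other regulatory particle genes, USP14, a deubiquitinase of the base, was called (0.29, limma adjusted p = 0.025), and the median was 0.01. ADRM1, a ubiquitin receptor, had a log2 fold change of 0.64 with a limma adjusted p of 0.0565, and SHFM1, a small lid subunit, lay lower without overlap at -0.30 (limma adjusted p = 0.0513). SHFM1 was called lower in deposited TPM (-0.59, limma adjusted p = 0.0351).

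Of 11 gene IDs for ubiquitin, its activating enzyme and the shuttle receptors, 3 were called higher and the median log2 fold change was 0.21. Among the 3 was the ubiquitin gene UBB, with 627, 596 and 588 scaled TPM in HA-TAZ 1, 2 and 3 and 480, 470 and 524 in control a, b and c (0.30, limma adjusted p = 0.0464). RPS27A, which encodes ubiquitin fused to a ribosomal protein, had a log2 fold change of 0.43 (limma adjusted p = 0.063). Of 8 genes that regulate proteasome levels, 3 were called higher, and the median log2 fold change was 0.20. They were AKIRIN2, which carries proteasomes into the nucleus (0.48, limma adjusted p = 0.0271), ZFAND5, an activator of the particle (0.44, 0.0128), and VCP, the ATPase that extracts ubiquitinated proteins (0.32, 0.0464). NFE2L1, the activator named above, had 207, 206 and 189 scaled TPM in HA-TAZ 1, 2 and 3 and 209, 183 and 165 in control a, b and c, which overlapped (0.12, limma adjusted p = 0.445). Its activity depends on processing of the protein, which RNA does not show. With TPM as deposited the medians of these lists were 0.05 for the caps and inhibitor, -0.01 for the core assembly chaperones, -0.28 for the other regulatory particle genes, -0.07 for the ubiquitin genes and shuttles and -0.09 for the regulators.

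At the level of transcripts, 224 of the 336 listed transcripts of the members had a mean of at least 1 TPM, and 1 was called higher and 0 lower, where 0.456% of all tested transcripts were called higher and 0.108% lower. It was ENST00000396394.2 of PSMA1, with 24.9, 24.7 and 23.6 deposited TPM in HA-TAZ 1, 2 and 3 and 19.6, 17.1 and 19.2 in control a, b and c. After scaling by factors over transcripts its log2 fold change was 0.66 (SE 0.09, limma adjusted p = 0.0483). At an unadjusted p under 0.05 there were 65 of the 224, where 24.3% of all transcripts were. Of the most abundant transcript of each of the 34 tested symbols, 33 were positive and 28 higher without overlap in TPM scaled by factors over transcripts, as were 17.1% of all tested and 28.8% of protein-coding transcripts. Those shares are over every tested transcript and not over the most abundant of each gene, for which no share was computed. The most abundant transcript of PSMD12, ENST00000584289.1, is typed as a retained-intron transcript in GENCODE release 29 and was the exception at -0.03. For PSMB5 it was ENST00000361611.6, at 38.2 ± 1.94 and 23.9 ± 3.61 scaled TPM (SD, n = 3 each; 0.67, limma adjusted p = 0.0736).

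The authors' deposited table compared transcripts by their own model. It held statistics for 288 transcripts of the members, of which 32 were positive with a q-value under 0.05, against 4.08% of all transcripts, and 1 was negative with such a q-value, against 1.6%. The 32 came from 26 symbols, and 23 of the 34 most abundant transcripts were among them in the authors' deposited table. The matching shares over all symbols and over the most abundant transcript of every gene were not computed. Both counts therefore have no background here. The lowest q-values in the authors' deposited table belonged to ENST00000292644.3 of PSMC2 (natural log effect 0.369, q = 4.10e-10), ENST00000308696.6 of PSMD1 (0.359, q = 8.73e-09) and ENST00000264639.4 of PSMD3 (0.318, q = 2.57e-08). For PSMB5 the authors' deposited table gave 0.493 for ENST00000361611.6 (q = 1.43e-05). The negative transcript was ENST00000467853.1 of PSMD6, a retained-intron form, at -0.306 (q = 0.0323) in the authors' deposited table. PSMC2 and PSMD1 were thus called there for a single transcript, while their summed TPM did not pass here.

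Transcript types differed within the members. Of 87 tested protein-coding transcripts, 38 were higher without overlap and 5 lower, with a median log2 fold change of 0.24; over all genes the shares were 28.8% and 9.44% and the median 0.10. Of 86 retained-intron transcripts, which keep an intron and are mostly not translated, 4 were higher and 15 lower, with a median of -0.10; over all genes the shares were 7.31% and 21.4% and the median -0.10. Retained-intron transcripts took 11.0%, 10.9% and 10.9% of the members' retained-intron plus protein-coding TPM in HA-TAZ 1, 2 and 3 and 15.9%, 13.7% and 14.1% in control a, b and c. Every HA-TAZ library was lower, as over all genes, where the shares were 10.2%, 10.5% and 10.7% against 12.2%, 11.9% and 12%. A summed gene value holds both types, so this shift lies within the gene values above; its part in them was not tested.

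The ratio of retained-intron to protein-coding TPM could be formed for 24 members, and it does not depend on the scaling. It was lower in HA-TAZ in 23 of them, and in 13 the groups did not overlap, where 33.7% of 4694 genes were lower and 2.17% higher in that way. The median log2 difference was -0.45 in the members and -0.30 over all genes. No member was called (limma, Benjamini-Hochberg, 0 of 24, where 0.0639% of all genes were called lower and 0.0213% higher), and 11 had an unadjusted p under 0.05, as did 28.5% of all genes. With a minimum of 5 TPM, 7 of 21 members were called lower, where 13.5% of 1899 genes were. PSMD5 showed the clearest gap, with retained-intron shares of 24.0%, 25.9% and 22.3% in HA-TAZ 1, 2 and 3 and 35.7%, 35.3% and 35.1% in control a, b and c (log2 difference -0.77, limma adjusted p = 0.08). Its main protein-coding transcript, ENST00000210313.3, made up 67.0% of the TPM of PSMD5 in HA-TAZ and 57.4% in control libraries. PSMA6 (-0.85), PSMA3 (-0.79) and PSMA1 (-0.70) had the other large differences, and PSMC3 (0.01) was the exception in sign. This ratio was chosen after the transcript values were seen.

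**Figure D4:**
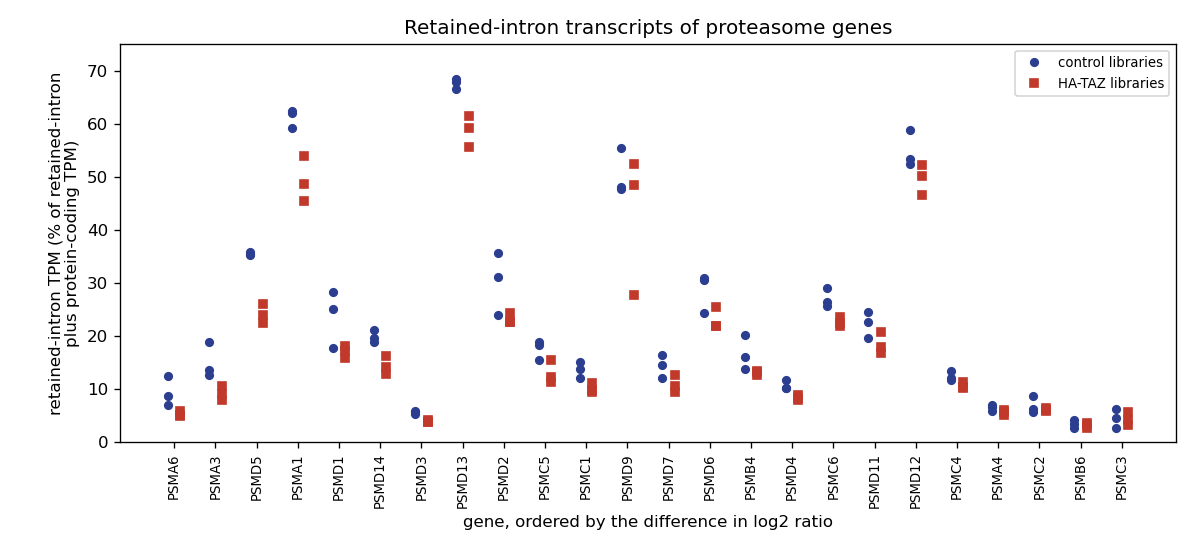
Retained-intron TPM as a percentage of retained-intron plus protein-coding TPM for the 24 members with both types, in control (circles) and HA-TAZ (squares) libraries, ordered by the difference. In 13 members, such as PSMD5 at 22.3% to 25.9% against 35.1% to 35.7%, all squares lie under all circles; the others overlap.

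The number of calls depended on the filter and on the transcripts counted. With a minimum of 5 TPM, 20 members were called higher and 0 lower, where 12% and 5.76% of all genes were. With protein-coding transcripts only, 15 of 33 were called higher and 0 lower, where 9.47% and 9.41% of all genes were. With those transcripts and the factor over all genes, 28 of 33 were called higher and 0 lower, where 28.6% and 4.11% of all genes were.

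The calls rested on the full set of libraries. Without HA-TAZ 1, HA-TAZ 2 or control b, 0 members were called by limma, where 0.413%, 0.465% and 0.623% of all genes were called higher. At an unadjusted p under 0.05 there were 22, 25 and 27 members, where 22.2%, 25.3% and 26.1% of all genes were. Without HA-TAZ 3 only PSMB5 was called, where 0.676% of all genes were called higher. Without control a the calls were PSMA7, PSMB5, PSMC1 and PSMC4 (1.45% of all genes), and without control c they were PSMA2, PSMB3, PSMB5, PSMC1 and PSMC4 (1.62%). The sizes moved less: the median log2 fold change of the members lay between 0.25 without control a and 0.33 without control c. In each of these fits 34 of 35 gene IDs were positive. PSMB5, PSMC1 and PSMC4 were also the members called when limma was run without the intensity trend, where 2.04% of all genes were called higher. With no filter on low values 5 members were called, where 1.06% of all genes were called higher.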

How the data were processed

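Transcript TPM in 6 libraries and a table of their own comparison were deposited by the authors. Per the submitters' processing notes, kallisto 0.46.0, sleuth 0.30.0 and GRCh37 were used; their settings, the annotation release and strand use are not given in the sources used here. Per the file headers, the authors' table holds p-values and q-values, effects and means as natural log values, and variance terms as other numbers (scores), which were not used. TPM carries no depth; the means in the authors' deposited table imply 52795484 estimated counts for a typical library. Columns of values per library left unused numbered 0.

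TPM was summed per gene ID and divided by a median-of-ratios factor over the 21512 genes with a mean of at least 1 TPM and values above 0 in all libraries. Genes with a mean of at least 1 TPM were tested on log2(scaled TPM + 1) with limma 3.58.1 and its trend (R 4.3.3), two-sided, with Benjamini-Hochberg adjustment over all genes and a threshold of 0.05; "called" means past it. Fold changes on this scale understate changes of low genes. Transcripts had factors of their own. The ratio of transcript types used a pseudocount of 0.1 TPM. Ratios of genes were compared by an exact permutation test (scipy 1.17.1). GENCODE release 29 gave only transcript types, and RefSeq (GRCh38.p14) the promoters. Many subunit genes have processed pseudogenes that can share reads. The test was checked on simulated data with as many genes raised as lowered and a uniform shift of scale. That check does not address the differing share of protein-coding genes between the libraries. Values for each library were given for every member called, the largest differences, the catalytic subunits and members under the filter, and for other lists the called genes and at most 3 others. Values of some listed genes that are not members are not reported here. Members and lists were chosen with earlier results of these data known. Alternatives were TPM as deposited, a factor over protein-coding genes, a pseudocount of 0.1, no filter, a minimum of 5 TPM, no trend, protein-coding transcripts only and leaving out each library. Tables were joined with pandas 2.3.3 and numpy 2.4.6 in Python 3.11.15, and figures drawn with matplotlib 3.10.9.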

Additional observations from a re-analysis of the deposited data

How the results depend on the processing

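With TPM as deposited the log2 fold change turned negative for PSMA4 (-0.0868), PSMB1 (-0.0918), PSMB2 (-0.0127), PSMC2 (-0.0860), PSMC5 (-0.0312), PSMC6 (-0.14), PSMD1 (-0.19), PSMD4 (-0.13), PSMD6 (-0.24), PSMD7 (-0.22), PSMD8 (-0.0344), PSMD9 (-0.0570), PSMD10 (-0.12), PSMD11 (-0.19) and PSMD12 (-0.19). PSMD6 was at -0.0200 with the factor over protein-coding genes. Members called higher numbered 13 in the main scaling (4.67% of all genes) and 5 with no filter (1.06%). They numbered 20 with a minimum of 5 TPM (12%), 3 with no trend (2.04%), and 0 to 5 with a library left out (0.413% to 1.62%). With TPM as deposited 1 was called, lower, as were 13.5% of all genes. With protein-coding transcripts only, 15 of 33 were called higher (9.47% of all genes). With those transcripts and the factor over all genes, chosen after the data were seen, 28 of 33 were (28.6%), and PSMD5 was at 0.0746. Over all genes the calls were 1652 (1057 higher), 3329 with TPM as deposited (261 higher), 1519 with the protein-coding factor (660 higher), 691 with no filter, 758 with no trend, and 118 to 470 with a library left out. Calls of transcripts were 324, then 120 with TPM as deposited, 195 with the protein-coding factor, 116 with no filter, 2009 with a minimum of 5 TPM, 154 with no trend, and 13 to 124 with a library left out. The lower calls of the retained-intron ratio were 0 of 24 members (3 of 4694 genes), and 7 of 21 with a minimum of 5 TPM (256 of 1899 genes). The ratio of PSMB10 to PSMB7, HA-TAZ over control, was 1.02 and ran from 0.975 without control a to 1.07 with a library left out. The cause of these shifts was not tested, except that the filters change the number of genes tested. No paired analysis was possible because the control columns carry a number that no label ties to a numbered wild type sample, and the labels name no batch that equal numbers would share. TPM gives no depth per library, and with 3 libraries in a group the precision rests on the spread between them.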

Other observations

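PSMC2 and PSMD4 held protein-coding transcripts that lay apart in opposite directions, picked after their values were seen. In PSMD4, ENST00000368884.3 had 69.1, 69.1 and 73.6 deposited TPM in HA-TAZ 1, 2 and 3 and 47.5, 54.5 and 56.0 in control a, b and c. ENST00000445776.1 had 21.0, 35.4 and 15.7 against 66.7, 43.1 and 39.7 deposited TPM. After scaling by factors over transcripts their log2 fold changes were 0.71 (limma adjusted p = 0.0697) and -0.77 (limma adjusted p = 0.17). ENST00000368884.3 made up 57.1% of PSMD4 in HA-TAZ and 38.9% in control libraries. In PSMC2, ENST00000292644.3 was at 0.50 (limma adjusted p = 0.0568) and ENST00000425206.1 at -1.01 (limma adjusted p = 0.169), both without overlap. None of these 4 transcripts was called, and similar transcripts of a gene can exchange estimated reads.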
